A study of Mus musculus with 2 samples.

Results

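The potassium and voltage-gated calcium channel genes of the mouse ureter were compared between Gata6cKO and control embryos. Members were all non-control probes whose printed gene name begins with Kcn followed by letters and a digit, or with Cacna, Cacnb or Cacng, which gave 188 of 39429 probes and 123 of 29876 genes. Of these, 83 genes were measured, meaning that at least 3 of the 4 spots of a probe were well above background in 1 genotype on both arrays, and the other 40 genes were not. Among the measured genes, 75 were well above background in both genotypes on both arrays, and the brightest kept probe stood for each gene. Kcnv1 and Kcnmb1 were well above background only in control, and Kcnd3os and Kcna1 only in Gata6cKO. Each of these was thus measured only through the genotype in which it was higher. The same held for 4 further genes, whose other genotype passed on 1 array only. Among them were Kcnmb2 and Kcnq5, measured through Gata6cKO, and Kcnb2, measured through control. The rule for members uses gene names and no measured value, but the members were chosen with earlier results of these data known.

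Total RNA came from ureters dissected at E14.5 from embryos of the NMRI strain. The Gata6cKO RNAs carried Tbx18(cre/+);Gata6(fl/fl), that is, both copies of the transcription factor gene Gata6 were floxed and cre was driven from Tbx18, which is active in the mesenchyme that surrounds the ureteric epithelium. The control RNAs were labelled Gata6(fl/?), with at least 1 floxed copy and no cre named, so that loss of Gata6 cannot be told apart from the presence of cre or of the changed Tbx18 copy. The 4 RNAs were hybridised in pairs to 2 two-colour arrays: replicate 1 held male RNA with Gata6cKO in Cy5, and replicate 2 held female RNA with the dyes exchanged, so that sex and dye orientation changed together between the arrays. Whether 1 embryo or several gave each RNA is not in the labels, so p-values speak only for these 4 RNAs. The variance behind each SE and p-value was mostly pooled over all genes tested. It had 11.9 prior degrees of freedom, beside 1 from a gene's own 2 arrays.

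The targeted gene was checked first. The only Gata6 probe stood at 14.46 and 14.45 in the RNAs labelled Gata6cKO and at 13.61 and 14.00 in the control RNAs, on a log2 intensity scale. Both values were thus higher in the RNAs labelled as knockout (log2 ratio 0.65 ± 0.12, n = 2 arrays; limma adjusted p = 0.00612, from 0.000696 to 0.625 over 9 alternative settings). Whether the probe lies inside the floxed segment is not given in the labels, so it checks neither the deletion nor the labels, and Gata6cKO means below the RNAs labelled so. Median spot intensities of the 4 channels lay between 224 and 442, the share of spots well above background was 67.2% to 68.5%, and the number of arrays limits the precision. Of the urothelial markers 16 of 16 were measured, and of the smooth muscle markers 11 of 12, with Lmod1 not well above background.

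Potassium channels let potassium leave the cell and pull the membrane towards rest, whereas voltage-gated calcium channels admit calcium when the membrane depolarises and so start contraction in smooth muscle. A channel is built from pore-forming alpha subunits and from accessory subunits that set its gating and its transport to the surface. In the mature ureter, pacemaker and smooth muscle cells generate the action potentials of peristalsis, whose plateau is carried by L-type calcium current and ended by potassium currents. At the stage studied here the smooth muscle layer is only being formed.

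Of the 83 measured channel genes, 8 rose and 1 fell in the ureter RNAs labelled Gata6cKO, relative to control. Of the genes that rose, 7 are reported here, Kcnd3, Kcnip4, Kcnma1, Kcnj12, Kcnc2, Kcnd3os and Kcnj8, and the gene that fell was Kcnv1. The largest rise was 2.26-fold, for Kcnd3, and no channel gene reached 2-fold on both arrays, a mark that 0.399% of all genes reached. All 9 genes encode potassium channel subunits or, for Kcnd3os, an RNA antisense to one, and 0 of 18 measured calcium channel genes passed the limma test. The 9 calls made up 10.8% of the measured channel genes, beside 4.55% of all 19801 genes tested, of which 2.35% were lower and 2.20% higher. The median log2 ratio of Gata6cKO over control was 0.042 for the channel genes and -0.00188 for all genes, and the median size of the ratio, regardless of direction, was 0.13 and 0.07. At an unadjusted p under 0.05 there were 28 channel genes, which is 33.7% of them, beside 11.4% of all genes. By this mark the 2 families were alike, with 33.8% of potassium and 33.3% of calcium channel genes. Their median log2 ratios were 0.037 and 0.044, so the calls alone do not set the families apart. The split of 8 higher and 1 lower became 3 higher and 0 lower with median centring of the arrays, and 16 higher and 6 lower with the deposited series values, where all 9 calls stood.

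**Figure D1:**
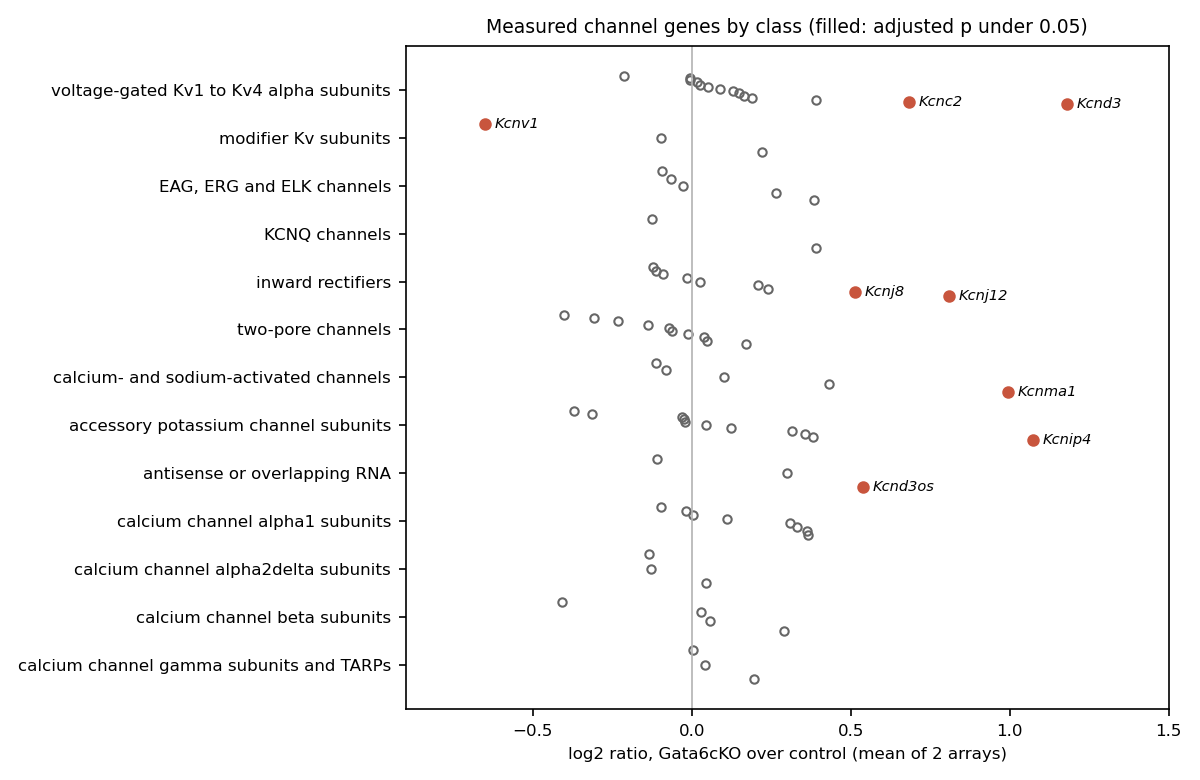
Mean log2 ratio of Gata6cKO over control (horizontal axis) of 80 of the 83 measured channel genes, one point a gene, grouped by class (vertical axis), with filled points for an adjusted p under 0.05 in the limma fit. The 7 filled points on the right and 1 on the left are potassium channel genes or the antisense RNA Kcnd3os, and the 4 calcium channel classes hold open points only.

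The promoters of the genes at the head of these changes are shown first, because Kcnd3 and its antisense RNA start close to each other and because Kcnip4 has 2 listed start sites far apart. Each line gives the 250 bases before the start site, taken from RefSeq's annotation of build GRCm38.p6, on the strand of the gene. Capitals mark matches to the GATA hexamers, which are spelled AGATAA or AGATAG, or with a first T as TGATAA or as TGATAG, on either strand, and no other motif is in capitals.
Kcnd3: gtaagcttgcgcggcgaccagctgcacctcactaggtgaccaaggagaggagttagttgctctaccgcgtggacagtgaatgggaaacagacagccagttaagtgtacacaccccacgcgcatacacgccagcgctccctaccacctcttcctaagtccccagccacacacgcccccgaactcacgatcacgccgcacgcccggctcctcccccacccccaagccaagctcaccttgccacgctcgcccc
Kcnd3os: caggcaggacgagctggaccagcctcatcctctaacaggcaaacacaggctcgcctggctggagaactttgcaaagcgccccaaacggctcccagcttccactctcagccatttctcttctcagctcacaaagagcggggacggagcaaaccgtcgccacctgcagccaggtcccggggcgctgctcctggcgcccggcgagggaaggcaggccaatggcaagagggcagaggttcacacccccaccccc
Kcnip4 distal start: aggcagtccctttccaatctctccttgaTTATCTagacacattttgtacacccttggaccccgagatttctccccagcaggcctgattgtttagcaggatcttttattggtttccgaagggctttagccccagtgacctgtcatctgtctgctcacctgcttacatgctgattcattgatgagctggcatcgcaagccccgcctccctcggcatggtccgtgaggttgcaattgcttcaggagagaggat
Kcnip4 proximal start: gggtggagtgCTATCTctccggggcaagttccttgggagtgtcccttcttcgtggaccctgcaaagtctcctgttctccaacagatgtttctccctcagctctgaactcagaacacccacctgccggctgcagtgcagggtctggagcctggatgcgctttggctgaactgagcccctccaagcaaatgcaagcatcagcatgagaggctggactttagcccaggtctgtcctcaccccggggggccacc
Kcnma1: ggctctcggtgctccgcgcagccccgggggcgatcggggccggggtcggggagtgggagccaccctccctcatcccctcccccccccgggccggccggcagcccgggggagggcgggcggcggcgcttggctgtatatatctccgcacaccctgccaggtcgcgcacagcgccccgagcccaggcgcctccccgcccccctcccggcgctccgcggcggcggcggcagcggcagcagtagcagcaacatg
The Kcnd3 window lies at chr3:105451640-105451889 on the plus strand, and the Kcnd3os window at chr3:105452956-105453205 on the minus strand, with start sites 1065 bases apart. The start of Kcnd3os thus lies downstream of that of Kcnd3, pointing back towards it. The Kcnip4 windows lie at chr5:49285660-49285909 and chr5:48599683-48599932, and the Kcnma1 window at chr14:24004206-24004455, all on the minus strand. Both Kcnip4 windows hold a GATA hexamer, at position -222 from the distal start and -240 from the proximal one, and the windows of Kcnd3, Kcnd3os and Kcnma1 hold none. The Kcnma1 window was 79.2% G or C, beside 62.8% for Kcnd3, 64.4% for Kcnd3os and a median of 52.4% over the table's windows.

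A window was listed for 7 of the 9 genes that passed, and a GATA hexamer stood in at least 1 window of 2 of them, Kcnip4 and Kcnj8. That is 28.6% of these genes, beside 27.4% of the 62 measured channel genes with a window and 29.7% of all 27025 genes in the table. The CArG box, the binding motif of serum response factor in smooth muscle genes, was found in the window of 0 measured channel genes, and of 1.62% of all genes. Its absence says only that these letters are not in these windows, and a GATA match is not a binding site.

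Among the voltage-gated alpha subunits of the Kv1 to Kv4 families, 2 of 15 measured genes rose and 13 did not pass. Over all genes tested, 2.20% rose. Kcnd3 encodes the pore of Kv4.3, a fast-inactivating channel that delays the next action potential. Its normalised log2 intensity was 12.37 and 12.23 in the Gata6cKO RNAs of replicates 1 and 2, and 11.01 and 11.23 in the control RNAs. Both Gata6cKO values were above both control values. The mean log2 ratio came to 1.18 ± 0.12 (moderated SE, n = 2 arrays; limma adjusted p = 6.73e-05), and the call held in 9 of 9 alternative settings, with adjusted p-values from 3.20e-10 to 0.0166. The probe lies on chromosome 3 at 105476854 to 105476913 (mm9), and whether it falls in an exon or an untranslated region was not analysed here. A second Kcnd3 probe was not well above background in any channel and was not used.

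Kcnd3os, the RNA read from the opposite strand beside Kcnd3, moved the same way. It stood at 7.30 and 7.16 in Gata6cKO and at 6.74 and 6.64 in control, where its spots on both arrays were not well above background. The rise was at least 1.39-fold, as the Gata6cKO mean over the lowest signal that counted as well above background (or the control's own signal where higher), with a fitted log2 ratio of 0.54 ± 0.11 (n = 2 arrays; limma adjusted p = 0.0108). The call was lost with median centring (adjusted p = 0.654) and held in the other 8 of 9 settings, from 1.52e-11. Its probe lies at 105254246 to 105254305 on chromosome 3 (mm9).

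The other Kv4 pore genes did not pass. Kcnd2, which encodes Kv4.2, had log2 ratios of 0.20 on replicate 1 and -0.15 on replicate 2, a mean of 0.03 that turned negative with median centring. Kcnd1, which encodes Kv4.1, had 0.12 and -0.12, a mean whose sign changed with Agilent's processed signals and with the mean of its probes.

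Kv4 channels carry helper proteins of 2 kinds, the calcium-binding KChIPs and the dipeptidyl peptidase-like proteins. Kcnip4, a KChIP gene, stood at 9.89 and 9.53 in Gata6cKO and at 8.70 and 8.57 in control, with no overlap. This 2.11-fold rise, a log2 ratio of 1.07 ± 0.11 (n = 2 arrays; limma adjusted p = 9.24e-05), passed in 9 of 9 settings (adjusted p from 1.98e-10 to 0.0141). Its dimmer probe, well above background only in Gata6cKO, had 0.50. The related genes Kcnip1 and Kcnip3 had mean log2 ratios of -0.03 and -0.02 and did not pass, and Kcnip3 changed sign with the mean of its probes. Dpp6, a peptidase-like helper that the name rule does not cover, stood at 10.51 and 10.78 in Gata6cKO and 9.70 and 9.87 in control (log2 ratio 0.86 ± 0.11, n = 2 arrays; limma adjusted p = 4.07e-04, and 0.0636 with median centring). Its relative Dpp10 had a ratio of -0.05 and did not pass. The pore gene and 1 helper of each kind were thus higher in both Gata6cKO RNAs than in both control RNAs. The antisense RNA was higher as well, but it counted as measured only through its Gata6cKO signal.

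Kcnc2 encodes Kv3.2, a channel that lets neurons fire at high rates. Its log2 intensity was 7.75 and 7.61 in Gata6cKO and 6.89 and 7.11 in control, again without overlap. The mean log2 ratio came to 0.68 ± 0.12 (n = 2 arrays; limma adjusted p = 0.00399), and the adjusted p was 0.249 with median centring and 0.0551 with no filter on dim probes, settings in which the call was lost. Among the Kv genes that did not pass, Kcna1 had 0.24 on replicate 1 and 0.54 on replicate 2 (adjusted p = 0.0954; called in 4 of 9 alternative settings), and in control neither array had it well above background. Its mean log2 ratio of 0.39 became 1.22 with Agilent's processed signals and 0.95 with the deposited series values. Kcna5, which encodes Kv1.5, had 0.01 and -0.02, a mean whose sign changed with median centring.

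Kcna4, the gene of the fast-inactivating Kv1.4 and chosen here after its values were seen, showed the widest disagreement between the arrays of all 83 genes. It stood at 11.97 in Gata6cKO and 11.29 in control on replicate 1, and at 11.44 and 12.02 on replicate 2. The log2 ratios of 0.68 and -0.58 leave a mean of 0.05 ± 0.21, which did not pass (adjusted p = 1.00). Whether this exceeds the spread between RNAs of 1 sex cannot be told with 1 array of each.

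**Figure D2:**
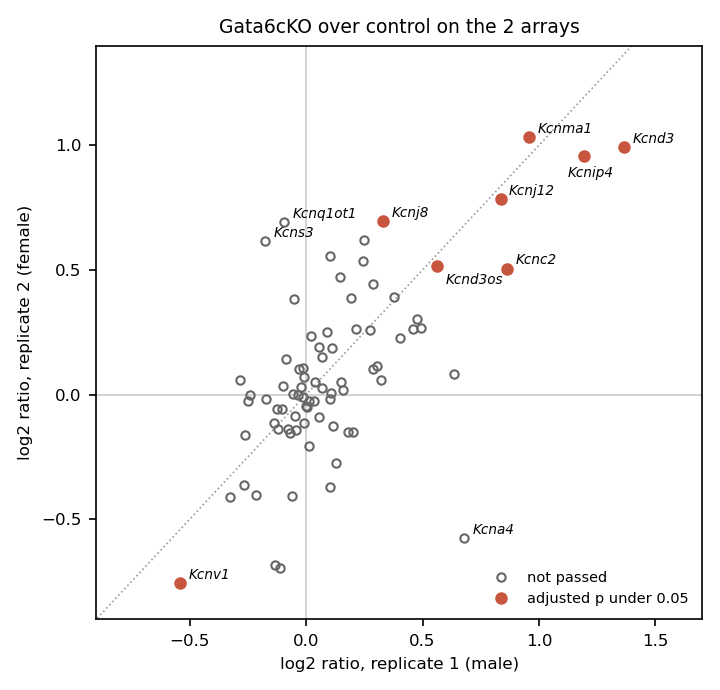
Log2 ratio of Gata6cKO over control on replicate 1 (horizontal axis, male) and replicate 2 (vertical axis, female) for 80 of the 83 measured channel genes, with filled points for an adjusted p under 0.05 and a dotted line for equal values. The 7 plotted genes that rose lie in the upper right, Kcnv1 in the lower left, and Kcna4 lies at 0.68 and -0.58 in the lower right.

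Of the modifier Kv subunits, which make no channel alone but change the currents of other Kv subunits, 3 of 10 genes were measured, and Kcnv1 fell. It stood at 6.72 and 6.78 in Gata6cKO, where neither array had it well above background, and at 7.26 and 7.54 in control. The fall was at least 1.53-fold, with a fitted log2 ratio of -0.65 ± 0.11 (n = 2 arrays; limma adjusted p = 0.00388), and it was lost with median centring only (adjusted p = 0.449; the other 8 settings from 3.31e-13). Kcns3, another modifier, had -0.17 on replicate 1 and 0.61 on replicate 2, and Kcnv2 had -0.17 and -0.02, and neither passed.

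The large-conductance calcium-activated potassium channel, BK, opens with calcium and depolarisation and is a brake on smooth muscle contraction. Its only pore gene, Kcnma1, stood at 11.21 and 11.22 in Gata6cKO and at 10.25 and 10.19 in control. The Gata6cKO values were both higher than both control values, with a log2 ratio of 1.00 ± 0.11 (n = 2 arrays; limma adjusted p = 1.29e-04), a 1.99-fold rise. The call held in 9 of 9 settings (adjusted p from 2.09e-08 to 0.0135). The other 3 Kcnma1 probes, all on chromosome 14 between 24118701 and 24130975 (mm9), had mean log2 ratios of 0.86, 0.71 and 0.49, against the brightest probe at 24111708 to 24111767. All 4 probes were higher in Gata6cKO on both arrays.

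None of the 3 measured beta subunit genes of BK passed in the limma fit. Kcnmb1, the beta subunit of smooth muscle that makes BK more sensitive to calcium, stood at 6.72 and 6.66 in Gata6cKO, where neither array had it well above background, and at 7.05 and 7.08 in control. The values did not overlap, but the gene counted as measured only through its control signal, so this order adds no separate support. The level was at least 1.24-fold lower, yet the log2 ratio of -0.37 ± 0.11 (n = 2 arrays) missed the threshold. Its adjusted p was 0.0935 in the limma fit, from 1.94e-05 to 1.00 over the alternatives, of which 4 of 9 called it lower. Kcnmb2, a beta subunit that inactivates BK, had 0.50 and 0.27 (adjusted p = 0.0935; called higher in 4 of 9 alternatives, with 3.95e-06 the smallest adjusted p), and Kcnmb4, the beta subunit best known in neurons, had 0.04 and 0.05, with a sign that changed with median centring. Lrrc55, a gamma subunit outside the name rule, fell by 0.45 ± 0.12 on the log2 scale (n = 2 arrays; limma adjusted p = 0.0483), a call kept in 6 of 9 settings, and Lrrc38 had a ratio of -0.04.

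Among the remaining accessory genes, Kcne4, a beta subunit that damps KCNQ1 current, had -0.26 and -0.36 (adjusted p = 0.186), Kcne3, its relative of epithelia, had 0.63 and 0.08 (adjusted p = 0.234), and Kcnab1, a cytoplasmic Kv1 beta subunit, had 0.40 and 0.23 (adjusted p = 0.194). None of the 3 passed, and Kcne4 and Kcnab1 were each called in 1 of 9 alternative settings. These 3, like Kcnd1, Kcnd2, Kcnip1, Kcnip3 and Kcnmb4, were chosen after their values were seen.

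Small-conductance calcium-activated channels follow calcium alone. Kcnn2 had log2 ratios of 0.25 and 0.62 (adjusted p = 0.0670) and passed in 4 of 9 alternative settings. Kcnn3 had -0.10 and -0.06 and did not pass, and Kcnn4, the intermediate-conductance channel, was not well above background. Kcnt2, a sodium-activated channel, had -0.28 and 0.06.

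**Figure D3:**
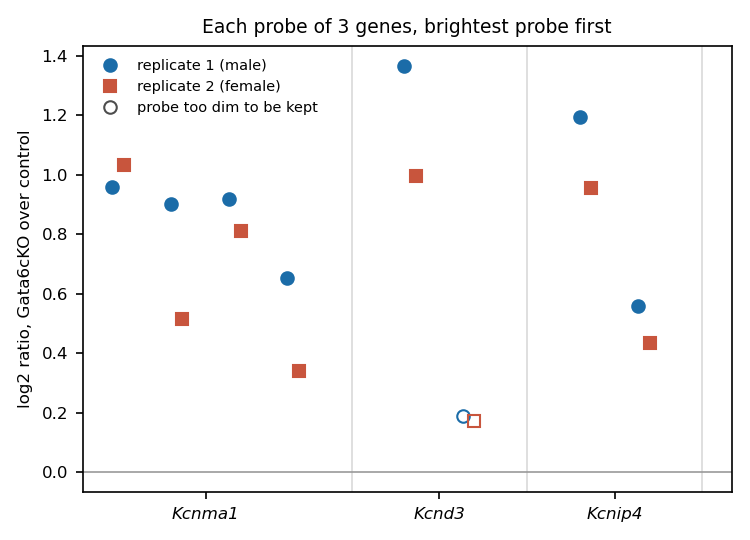
Log2 ratio of Gata6cKO over control (vertical axis) of every probe of Kcnma1, Kcnd3 and Kcnip4, brightest probe first within each gene, with circles for replicate 1, squares for replicate 2 and open symbols for probes too dim to be kept. The 4 Kcnma1 probes lie above 0 on both arrays, as do both Kcnip4 probes, and the open Kcnd3 symbols lie at 0.19 and 0.17.

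Among the KCNQ channels, which carry slow currents that steady the membrane, Kcnq5, a subunit also known from smooth muscle, had 0.47 and 0.30 (adjusted p = 0.0772; called higher in 4 of 9 alternative settings, with 6.07e-07 the smallest adjusted p). Kcnq1 had -0.14 and -0.11, and neither of the 2 passed in the limma fit.

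Of 9 measured inward rectifiers, which pass potassium best near the resting potential, 2 rose, beside 2.20% of all genes. Kcnj12 encodes Kir2.2, a strong rectifier that sets the resting potential. It stood at 7.75 and 7.58 in Gata6cKO and at 6.91 and 6.79 in control, a log2 ratio of 0.81 ± 0.11 (n = 2 arrays; limma adjusted p = 5.86e-04; 0.0590 with median centring). Kcnj8 encodes Kir6.1, the pore of the ATP-sensitive channel of vascular smooth muscle and pericytes, and stood at 9.30 and 9.01 in Gata6cKO and at 8.97 and 8.31 in control. Its lower Gata6cKO value exceeded its higher control value by a narrow margin, and the log2 ratio of 0.51 ± 0.12 (n = 2 arrays; limma adjusted p = 0.0264) came from 0.33 on replicate 1 and 0.70 on replicate 2. That call was lost in 3 of 9 settings, with adjusted p-values of 0.965 with median centring, 0.129 with no filter and 0.441 with separate channels.

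Abcc9, the sulphonylurea receptor that joins Kcnj8 in that channel, did not pass, at a log2 ratio of 0.14 ± 0.11, and Kcnj11, the other pore gene of ATP-sensitive channels, was not well above background. Kcnj2, which encodes the strong rectifier Kir2.1, had 0.21 and 0.26 (adjusted p = 0.435). The other 6 measured inward rectifiers had mean log2 ratios between -0.12 and 0.21.

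The two-pore channels, which carry background potassium current, and the EAG, ERG and ELK channels held no gene that passed the limma test, with 2 of 10 and 2 of 5 measured genes at an unadjusted p under 0.05, a mark that 11.4% of all genes met. Kcnk2, the stretch-activated channel TREK-1 of visceral smooth muscle, had -0.11 on replicate 1 and -0.69 on replicate 2 (adjusted p = 0.157), and Kcnk1 had -0.21 and -0.40 (adjusted p = 0.213). Kcnk3, which encodes the acid-sensitive TASK-1, had -0.06 and -0.41. The median over the 10 two-pore genes was -0.07, with 6 genes negative and 1 positive on both arrays. Over all genes these shares were 25.5% and 23.4%, and some of the 6 lay close to 0, such as Kcnk4 at -0.01. Kcnh7, an ERG channel gene, had 0.38 and 0.39 (adjusted p = 0.0743, and called in 4 of 9 alternative settings), Kcnh2, the ERG gene best known from the heart, had 0.27 and 0.26 (adjusted p = 0.322), and Kcnh4 had -0.04 and -0.14.

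The remaining long RNAs of the name rule were Kcnq1ot1, an imprinted RNA antisense to Kcnq1, and Kcnmb4os2. Kcnq1ot1 had -0.09 on replicate 1 and 0.69 on replicate 2 at its brighter probe, and its other probe had a mean of -0.09. Kcnmb4os2 had -0.08 and -0.14, and neither passed.

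**Figure D4:**
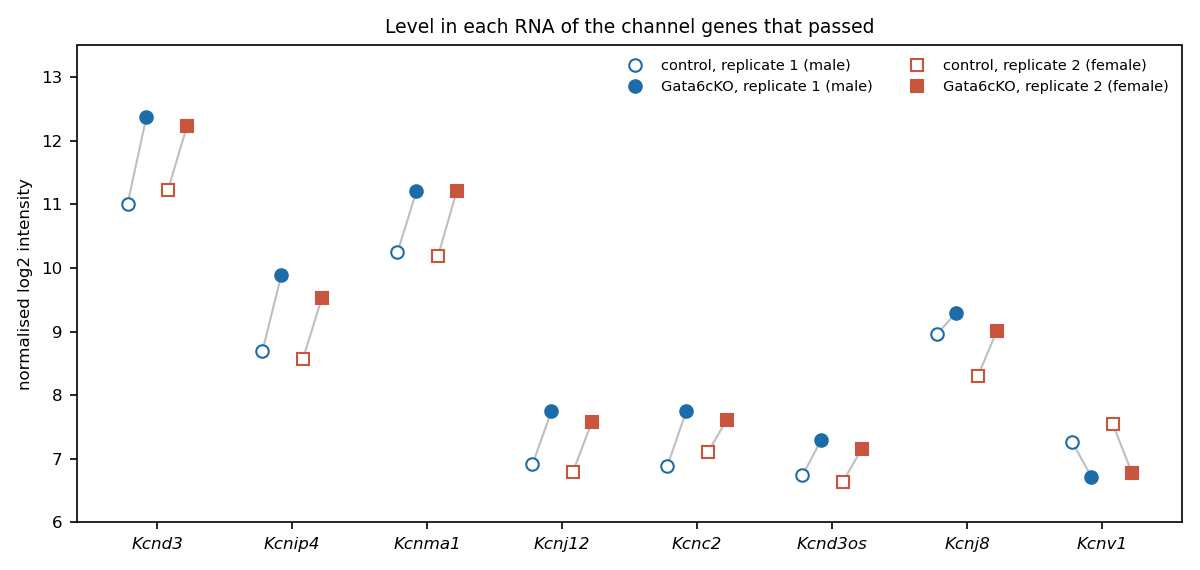
Normalised log2 intensity (vertical axis) in each of the 4 RNAs for 8 of the 9 channel genes that passed, with open symbols for control, filled symbols for Gata6cKO, circles for the male replicate 1, squares for the female replicate 2 and lines joining RNAs of 1 array. In all 8 genes the 2 filled symbols lie on 1 side of the 2 open symbols, and heights are not comparable between genes.

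Among the genes that passed, the log2 ratios of 4 that lay near background moved with the background correction. With Agilent's processed signals they were 1.62 for Kcnj12, 1.46 for Kcnd3os, 1.30 for Kcnc2 and -1.51 for Kcnv1, each more than 1.5 times its value above, with the same direction. Among the reported genes that did not pass, the same setting gave 0.99 for Kcnmb2, 0.95 for Kcnq5, 0.62 for Kcnh7, 0.57 for Cacna1s, 0.48 for Cacnb4, -0.45 for Kcnb2 and -1.05 for Kcnmb1, again more than 1.5 times the mean ratio of each, and it called all of these but Kcnb2.

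In all 9 genes that passed, the Gata6cKO and control values did not overlap. The same held for 45 of the 83 measured genes, beside 33.4% of all genes tested. The 9 genes were called on ratios of these same values, so their lack of overlap adds no separate support. Both arrays had the same sign in 69.9% of the measured channel genes and in 48.8% of all genes. On each array the SD over the spots of the probe lay between 0.0119 and 0.211 for the 9 genes.

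Of 18 measured calcium channel genes, 0 passed the limma test, 6 had an unadjusted p under 0.05 (33.3%, beside 11.4% of all genes), and the separate-channel fit called 0. Agilent's processed signals added Cacna1s and Cacnb4, normexp with offset 10 added Cacnb2, and the deposited series values added all 3 of these. Of the pore-forming alpha1 genes, 5 of 8 had positive ratios on both arrays, beside 23.4% of all genes, the median log2 ratio was 0.21, and none passed in the limma fit, with 4 of 8 at an unadjusted p under 0.05. Cacna1c, which encodes Cav1.2, the L-type channel that drives smooth muscle contraction, had 0.07 and 0.15 (adjusted p = 1.00). Cacna1d, the L-type channel Cav1.3 of pacemaker cells, had 0.46 and 0.26 (adjusted p = 0.113), and its other probe 0.11.

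The T-type channels open near the resting potential and take part in pacemaking. Cacna1g, which encodes Cav3.1, stood at 13.29 and 13.49 in Gata6cKO and 13.00 and 13.05 in control. The values did not overlap, as was so for 33.4% of all genes tested. The log2 ratio of 0.37 ± 0.11 did not pass (n = 2 arrays; limma adjusted p = 0.102), and none of 9 alternatives called it, with 0.0774 the smallest adjusted p. Cacna1h, which encodes Cav3.2, had 0.10 and 0.56 (adjusted p = 0.254), with its 2 dimmer probes at 0.07 and 0.00169. Cacna1a, the P/Q-type channel of nerve endings, had 0.05 and -0.09, and the N-type gene Cacna1b was not well above background.

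The auxiliary calcium channel subunits bring the pore to the surface and shape its current. Cacna2d1, the alpha2delta subunit of muscle, had -0.12 and -0.14, Cacna2d2 had 0.10 and -0.37, and Cacna2d3 had 0.07 and 0.03. Among the beta subunits, Cacnb2, a partner of Cav1.2 in heart and smooth muscle, had -0.13 on replicate 1 and -0.68 on replicate 2 (adjusted p = 0.139), and its other probe had -0.26. Cacnb3 had -0.01 and 0.07, a mean that turned negative with median centring, and Cacnb4, a neuronal beta subunit, had 0.19 and 0.39 (adjusted p = 0.270).

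Of 8 gamma subunit genes 3 were measured, Cacng4, Cacng6 and Cacng7, with mean log2 ratios of 0.19, 0.01 and 0.04, the second of which changed sign with Agilent's processed signals and with the deposited values, and the third with median centring. Among the skeletal muscle subunits, Cacna1s, the voltage sensor of skeletal muscle, had 0.14 and 0.47 (adjusted p = 0.259), Cacnb1 had 0.11 and 0.01, and Cacng1 was not well above background.

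**Figure D5:**
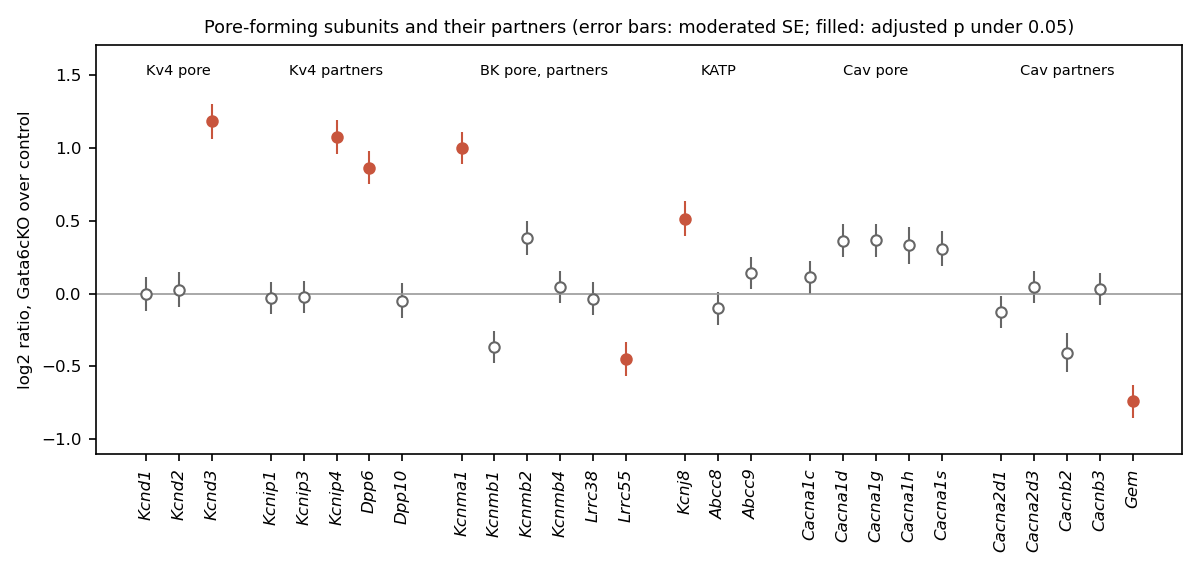
Log2 ratio of Gata6cKO over control (vertical axis, mean of 2 arrays with the moderated SE as error bar) of pore-forming subunits and their partners in the Kv4, BK, ATP-sensitive (KATP) and calcium (Cav) channels, with filled points for an adjusted p under 0.05. Kcnd3, Kcnip4 and Dpp6 stand at 1.18, 1.07 and 0.86, Kcnma1 at 1.00 beside Kcnmb1 at -0.37, and Gem at -0.74.

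Of 48 related genes of channel partners and calcium handling outside the name rule, 39 were measured. Of these, 2 rose, 3 fell and 34 did not pass. The share called was 12.8%, beside 4.55% of all genes, and the median log2 ratio was 0.06. Besides Dpp6 and Lrrc55, Gem, a small GTPase that restrains calcium channels by binding their beta subunits, fell by 0.74 ± 0.11 on the log2 scale (n = 2 arrays; limma adjusted p = 0.00124; 0.142 with median centring). It stood at 9.97 and 9.83 in Gata6cKO and at 10.77 and 10.51 in control. Ano1, a calcium-activated chloride channel of pacemaker and epithelial cells, fell by 0.53 ± 0.11 (n = 2 arrays; limma adjusted p = 0.0116), and Slc8a1, the sodium-calcium exchanger, rose by 0.49 ± 0.11 (n = 2 arrays; limma adjusted p = 0.0199), a call kept in 5 of 9 settings. With median centring 0 of the 39 passed. Abcc9, Dpp10 and Lrrc38 were chosen after their values were seen.

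The other measured channel genes reported here had mean log2 ratios between -0.21 for Kcnb2 and 0.21 for Kcnj4, and none passed in the limma fit, although Kcnb2 was called with the deposited series values. The 40 genes not well above background, for which no ratio is given, comprised 7 modifier Kv subunits, 6 inward rectifiers, 5 accessory potassium channel subunits, 5 gamma subunits, 4 two-pore channels and 13 genes of the other classes. Among them were Kcnj3, Kcnj5, Kcnj6 and Kcnj9, the G protein-gated inward rectifiers of heart and brain, and Kcna2, a Kv1 channel of axons. No statement on these genes follows beyond their signal in these 4 RNAs.

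Markers of several cell types moved with genotype on the same arrays. For comparison, 2.20% of all genes tested were called higher and 2.35% lower. Of 19 measured markers of neurons and glia 13 rose and none fell, with a mean log2 intensity of 11.60 and 11.54 in Gata6cKO and 10.88 and 10.59 in control. Of 11 skeletal muscle markers 6 rose (1 with median centring and 0 with separate channels), with means of 9.67 and 9.18 in Gata6cKO and 9.20 and 8.79 in control, and Myf5, Myf6, Ckm and Chrng were not well above background. Of 11 smooth muscle markers 4 fell, with means of 10.78 and 10.52 in Gata6cKO and 11.21 and 11.00 in control, and of 16 urothelial markers 10 fell, with means of 11.78 and 11.68 against 12.69 and 12.47. Of 7 measured nephron markers 4 rose (1 with median centring, 1 with no filter and 2 with separate channels), with means of 10.42 and 10.11 in Gata6cKO and 9.84 and 9.78 in control, the largest being Wt1 at a log2 ratio of 1.22, and Umod and Slc12a1 were not well above background. Of 7 endothelial markers 1, Tek, fell, a call lost with median centring, no filter and separate channels, with means of 11.60 and 11.61 in Gata6cKO and 11.61 and 11.78 in control. Several of the channel genes that rose, such as Kcnd3, Kcnip4 and Kcnc2, are known from neurons, as is the helper gene Dpp6. Kcnj12 is known also from muscle. Kcnd3 was also on the list of smooth muscle and pacemaker channels, as were Kcnma1 and Kcnj8, and no other gene of that list passed. Other genes described above as neuronal, Kcnmb4, Cacnb4 and Cacna1a, did not pass, with mean log2 ratios of 0.04, 0.29 and -0.02. Kcna2 and Cacna1b were not well above background. The part of these cell types in the channel values was not tested, and in bulk RNA more cells of a type and more RNA per cell cannot be told apart.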

How the data were processed

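Per the file headers, the deposited scanner files give raw mean and local background intensity per spot and dye, and a processed intensity detrended and lowess dye-normalised by the authors; the submitters' processing notes name Agilent Feature Extraction 10.7.3.1; the file's log10 ratio, Cy5 over Cy3 per the file headers, was not tested. The deposited series values are a signed fold score of Gata6cKO over control (r of 0.985 and 0.980 with the processed ratios across kept probes); how the authors summarised spots is not stated in the labels. In R 4.3.3 with limma 3.58.1, background was corrected by normexp (offset 50), ratios were loess-normalised with control and outlier spots at weight 0, and spots were averaged per probe. The dye-swapped array's sign was turned, the ratio was fitted by lmFit and eBayes over 19801 genes (1 residual and 11.9 prior degrees of freedom), and p-values were adjusted by Benjamini-Hochberg with a threshold of 0.05. A run of the fit on simulated data used 1 common SD for all genes, so it does not check genes that differ in spread. Levels per RNA are log2 intensities after Aquantile scaling between arrays. No spot was saturated. Both arrays lay on 1 slide and scan. Symbols are from the scanner files, and 172 of 188 member probes had an accession in the RefSeq table of GRCm38.p6. Probe coordinates are on mm9. Members, lists and tests were chosen with earlier results of these data known. Named genes were all that passed, the 3 largest absolute ratios of each class, and lists of smooth muscle, pacemaker, skeletal muscle and neuronal channels; 3 measured genes are counted but not reported here by name.
Alternatives were Agilent's processed signals, normexp offset 10, median centring in place of loess, no filter on dim probes, all 4 spots required, the mean of a gene's kept probes, a trended prior, the deposited series values, a separate-channel fit, and each array left out.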

Additional observations from a re-analysis of the deposited data

Results flagged for a closer look

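In 5 of the channel genes reported here the arrays had opposite signs, each more than 2 SDs of its own 4 spots from 0, a limit chosen after the data were seen. Sex and dye orientation changed together between the arrays, 1 array stood for each, and the difference was not tested; the SD over spots is technical and does not give the spread between RNAs. The log2 ratio of Kcna4 was 0.68 in male RNA and -0.58 in female RNA, a difference of 1.25. The difference between the arrays, male minus female, was -0.79 for Kcns3 and -0.78 for Kcnq1ot1, whose signs were negative on the male array. It was 0.35 for Kcnd2 (0.20 and -0.15) and 0.14 for Cacna1a (0.05 and -0.09). In all, 25 of the 83 measured channel genes had opposite signs on the arrays.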

How the results depend on the processing

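Calls of Kcnd3, Kcnip4 and Kcnma1 held in all 9 alternative settings, and all 9 channel calls held in 6 of them. Against 8 higher and 1 lower, there were 15 higher and 2 lower with Agilent's processed signals, 13 and 3 with normexp offset 10, 3 and 0 with median centring, 13 and 2 with a trended prior, and 16 and 6 with the deposited series values. Over all genes, 901 calls became 190 with median centring, 477 when dim probes were kept, 1467 with the deposited values and 547 with separate channels. They became 1191 with Agilent's processed signals, 1226 with normexp offset 10 and 1176 with a trended prior. The median log2 ratio of channel genes, 0.042, was 0.056 with processed signals, 0.024 with median centring and 0.025 when dim probes were kept, and lay between 0.040 and 0.054 without replicate 1 or without replicate 2. The median over all genes, -0.00188, was 0.000834 with processed signals, -0.0267 with median centring and -0.00236 when dim probes were kept. No called channel gene changed sign in any setting or on either array alone. The cause was not tested. With 1 array left out there is no test and no count of calls. The ratios are already paired, each array setting a Gata6cKO against a control RNA. Genes near background moved with the background correction: the log2 ratio of Kcnv1 was -1.51 and that of Kcnd3os 1.46 with processed signals, against -0.65 and 0.54.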
